A study of Mus musculus with 20 samples.

Results

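A set of 9 genes listed as markers of the macrophages of the brain's borders, Mrc1, Cd163, F13a1, Lyve1, Dab2, Pf4, Cbr2, Ms4a7 and Stab1, were followed through libraries of sorted microglia. They were 9 of the 39017 gene identifiers in the count table, and they were taken by symbol from a list written with earlier results of these data known. The genes were chosen by their measured values in these libraries, compared by library name, by injury and by cell type, so their differences between library series, between injured and sham mice in microglia, and between microglia and astrocytes are given as a description, with no p-value for a single one of the 9. Counts of the 9 past a threshold are printed beside the same count over all genes tested, and nothing is read from them. P-values are given for other genes, and for the 9 where FPI is compared with sham in astrocytes.

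The libraries came from adult male C57BL/6J mice of 3 to 4 months, 7 days after lateral fluid percussion injury (FPI), in which a pulse of fluid strikes the exposed dura, or after sham surgery, in which mice had the craniectomy and the connection to the device but no pulse. Cells were taken from the left forebrain, on the side of the injury, after perfusion of the animal with saline and digestion with papain at 37 degrees. Microglia were gated as CD11b+ cells with intermediate CD45, and astrocytes by ACSA-2. There were 5 sham and 5 FPI libraries of each cell type, 20 in all, each from 1 cell type of 1 animal without pooling. By the library names, FPI astrocyte libraries 2 and 5 share an animal number.

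The 10 microglia libraries carry names of 2 kinds. In 6 of them (3 sham, 3 FPI) the name ends in M, and in 4 (2 sham, 2 FPI) it ends in J-A. The animal numbers in the names also fall in 2 separate ranges, and so do the S numbers that follow the endings. These differences between the series cannot be told apart from the endings. The labels do not say what the endings mean, and the libraries are called here the M series and the J-A series. Library totals were 7700165 to 13110857 counts in the M series, 5623349 to 8655477 in the J-A series and 6470553 to 10917112 in astrocytes. Mitochondrial genes took 4.24 to 8.36% of counts in the M series and 4.89 to 6.62% in the J-A series. The 12 microglia identity genes, among them Tmem119 and P2ry12, summed to 13007 to 23317 CPM in the M series, to 18614 to 24484 CPM in the J-A series and to at most 248 CPM in astrocytes, so both series hold the markers of their label.

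Border-associated macrophages live in the meninges, around penetrating vessels and in the choroid plexus, outside the parenchyma where microglia reside. They scavenge through cell surface receptors, and they share with microglia CD11b, the growth factor receptor Csf1r and much of their gene expression, while their surface CD45 is usually higher than that of microglia. Mrc1 (the mannose receptor CD206), Cd163 (the haemoglobin scavenger receptor), Lyve1 (a hyaluronan receptor also found on lymphatic endothelium) and Stab1 (stabilin-1, a scavenger receptor) are receptors of this kind. Dab2 is an endocytic adaptor, F13a1 the A chain of coagulation factor XIII, Pf4 the chemokine platelet factor 4, Cbr2 a carbonyl reductase and Ms4a7 a membrane protein of the MS4A family. In sorted bulk RNA, fewer cells of a type and less RNA per cell cannot be told apart.

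In GENCODE M21 on GRCm38, Mrc1 lies on the plus strand of chromosome 2 (14229392 to 14332057), Cd163 on the plus strand of chromosome 6 (124304656 to 124330527) and Pf4 on the plus strand of chromosome 5 (90772435 to 90773383). Dab2 lies on the plus strand of chromosome 15 (6299788 to 6440712). The minus strand holds F13a1 (chromosome 13, 36867178 to 37050244), Lyve1 (chromosome 7, 110850607 to 110863239), Cbr2 (chromosome 11, 120729489 to 120732114), Ms4a7 (chromosome 19, 11321039 to 11336146) and Stab1 (chromosome 14, 31139013 to 31168641). Thus no 2 of the 9 share a chromosome.

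The 250 bases before the start of transcription are shown for Mrc1 and Pf4, whose levels differed between the series, and for Stab1, whose levels overlapped. They are RefSeq windows on GRCm38.p6, read 5′ to 3′ in the direction of the gene. Capitals mark a core of the type bound by PU.1, the ETS factor of the myeloid lineage (GAGGAA, or TTCCTC on the other strand), and a core of the type bound by Maf factors (TGCTGA, or TCAGCA on the other strand). The last 22 bases of the Mrc1 window lie inside the GENCODE gene.
Mrc1, chr2:14229164-14229413, plus strand: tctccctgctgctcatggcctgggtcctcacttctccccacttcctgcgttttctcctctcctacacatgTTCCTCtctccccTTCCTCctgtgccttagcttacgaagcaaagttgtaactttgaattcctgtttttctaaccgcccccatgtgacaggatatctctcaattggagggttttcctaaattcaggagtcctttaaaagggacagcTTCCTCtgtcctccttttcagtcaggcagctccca
Pf4, chr5:90772185-90772434, plus strand: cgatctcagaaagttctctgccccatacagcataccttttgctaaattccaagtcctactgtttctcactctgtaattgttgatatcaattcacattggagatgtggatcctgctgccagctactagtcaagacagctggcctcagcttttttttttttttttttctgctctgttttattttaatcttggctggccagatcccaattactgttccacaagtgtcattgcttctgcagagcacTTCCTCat
Stab1, chr14:31168642-31168891, minus strand: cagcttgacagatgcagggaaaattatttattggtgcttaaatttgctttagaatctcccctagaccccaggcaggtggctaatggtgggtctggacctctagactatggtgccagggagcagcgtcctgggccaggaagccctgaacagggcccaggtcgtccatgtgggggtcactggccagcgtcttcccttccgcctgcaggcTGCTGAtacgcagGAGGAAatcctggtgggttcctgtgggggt
Of the 9 genes, 8 matched at least 1 window by symbol, all but Lyve1. Mrc1 held GAGGAA or its complement at 3 places, and Pf4 and Stab1 at 1 place each. Over all windows of a gene, 6 of the 8 held it (Mrc1, F13a1, Dab2, Pf4, Cbr2 and Stab1), against 25.9% of the 27025 genes with such a window. TGCTGA was held by Dab2 and Stab1, against 18% of all genes. A match describes the letters of the window and is not evidence of binding.

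The first comparison asked how the level of the 9 genes varied between the series. In the 6 M libraries 8 of the 9 genes stood above all 4 J-A libraries, and Stab1 alone overlapped. A level in CPM is a count relative to the library total, with TMM factors set within the cell type. Of all 13062 genes tested, 1.14% had every J-A library below every M library.

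Among the receptors, Mrc1 stood at 277, 176 and 275 CPM in the 3 sham M libraries and at 194, 114 and 82.5 CPM in the 3 FPI M libraries. In the J-A series it stood at 19.4 and 11.5 CPM in sham and at 19.2 and 48.0 CPM in FPI. The lowest M library was thus above the highest J-A library, and the mean was 187 ± 80.4 CPM (SD, n = 6) against 24.6 ± 16.1 CPM (n = 4), a ratio of 7.60. Cd163 stood at 59.0, 36.9 and 56.7 CPM in sham M libraries, at 15.8, 23.4 and 18.7 CPM in FPI M libraries, and at 0.335, 2.72, 1.25 and 1.89 CPM in the J-A libraries (sham first). That is 3 to 14 counts per J-A library against 130 to 522 per M library, and the M mean was 22.6 times the J-A mean.

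Lyve1 was the lowest of the receptors, at 17.5, 13.2 and 10.1 CPM in sham M libraries and at 2.06, 4.48 and 3.30 CPM in FPI M libraries. In the J-A libraries it had 6, 9, 0 and 12 counts, or at most 1.75 CPM. The groups did not overlap, but the lowest M library (17 counts) and the highest J-A library lay close together. Stab1 behaved otherwise: it stood at 911, 939 and 871 CPM in sham M, at 908, 737 and 897 CPM in FPI M, at 840 and 865 CPM in sham J-A and at 800 and 766 CPM in FPI J-A. Its mean was 877 ± 72.1 CPM in the M series and 818 ± 43.5 CPM in the J-A series, a ratio of 1.07 that was smaller than the spread between libraries. Stab1 is kept as a listed marker, but it was high in every microglia library and did not follow the other listed genes.

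F13a1, the coagulation factor chain, stood at 84.3, 49.5 and 91.4 CPM in sham M, at 47.7, 32.0 and 22.8 CPM in FPI M, at 3.35 and 2.53 CPM in sham J-A and at 0.469 and 7.69 CPM in FPI J-A. The M mean was 15.6 times the J-A mean. The chemokine Pf4 stood at 28.2, 12.2 and 14.6 CPM in sham M and at 17.9, 9.95 and 5.06 CPM in FPI M. It had 0, 2, 8 and 0 counts in the 4 J-A libraries against 43 to 218 counts in the M libraries, and its ratio of means, 35.7, was the largest of the 9 genes.

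The endocytic adaptor Dab2 stood at 94.2, 74.4 and 116 CPM in sham M, at 58.1, 60.1 and 48.0 CPM in FPI M, and between 15.2 and 19.6 CPM in the 4 J-A libraries. The J-A libraries lay close together, and the M mean was 4.41 times theirs. Cbr2 stood at 9.70, 3.96 and 10.6 CPM in sham M, at 6.07, 4.85 and 3.88 CPM in FPI M, and had 4, 0, 10 and 2 counts in the J-A libraries, with a ratio of means of 11.4. Ms4a7 stood at 7.37, 4.18 and 6.05 CPM in sham M, at 3.52, 8.95 and 6.36 CPM in FPI M, had 0 counts in both sham J-A libraries and stood at 1.72 and 3.37 CPM in FPI J-A. Its separation was the narrowest: the highest J-A library was at 3.37 CPM and the lowest M library at 3.52 CPM.

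**Figure D1:**
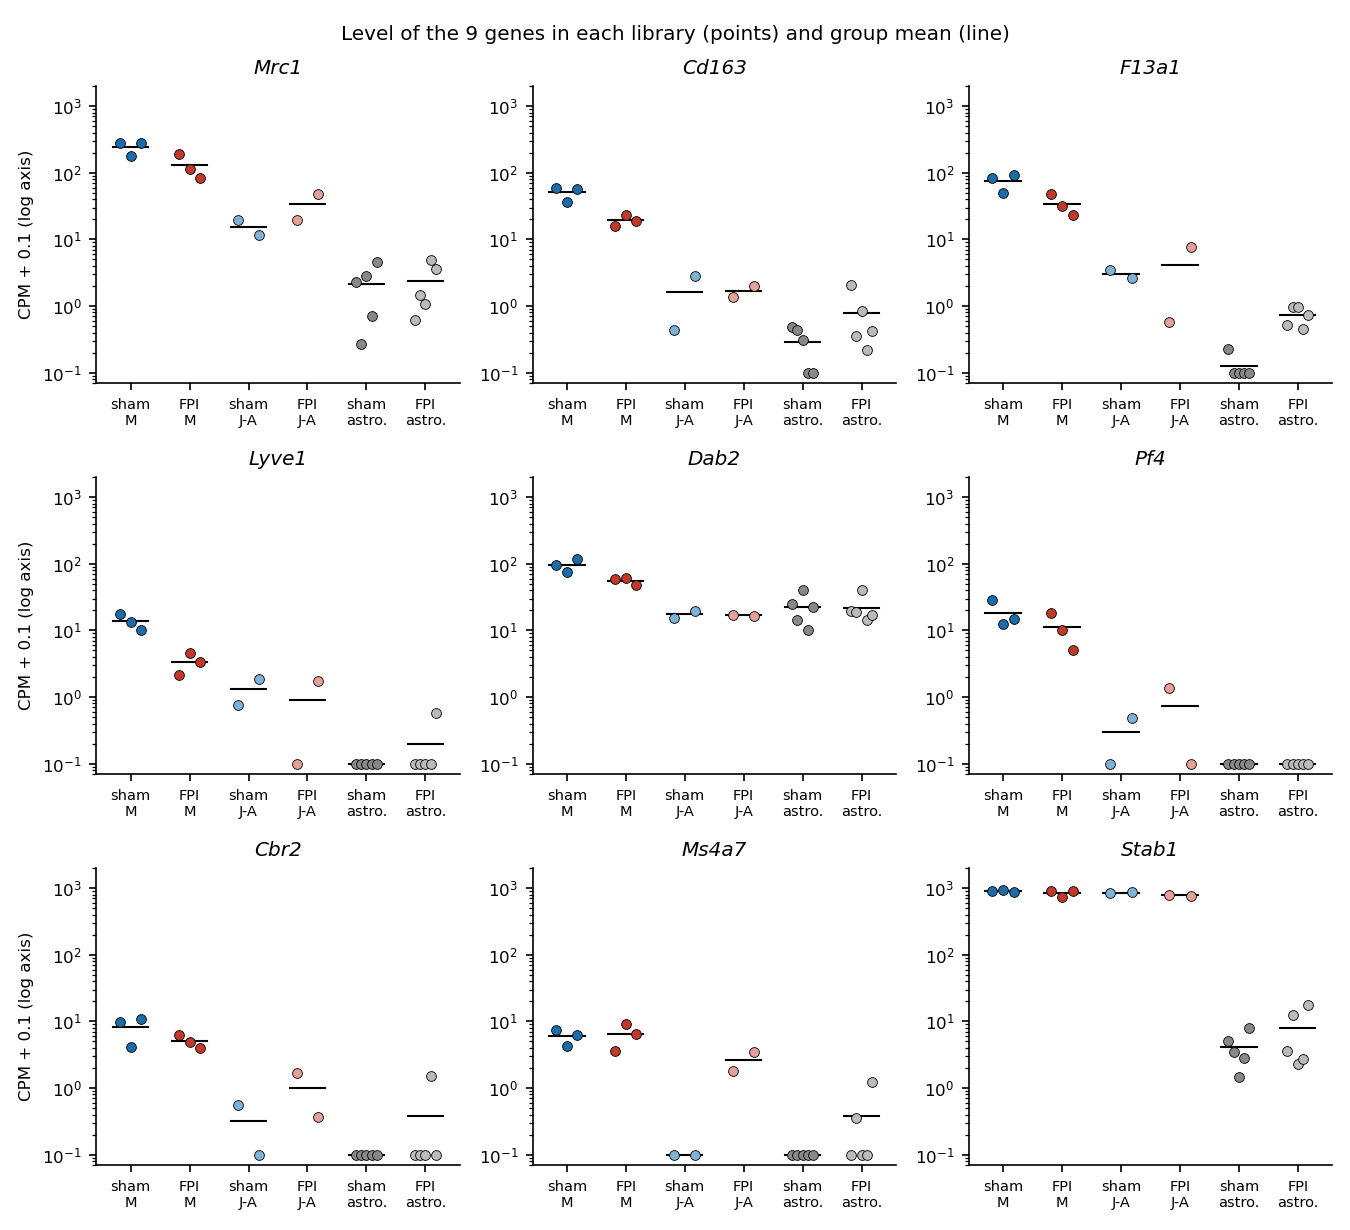
Level of each of the 9 genes in each library, as CPM + 0.1 on a log axis, by condition, series and cell type (astro., astrocytes). Points are libraries and lines are group means. Points at the bottom of a panel are libraries with 0 counts, and for every gene but Stab1 the 6 M libraries sit above the 4 J-A libraries.

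In a fit of the 10 microglia libraries with condition and series as terms (edgeR), the log2 fold change of J-A minus M was -2.85 ± 0.36 (SE) for Mrc1, -4.41 ± 0.42 for Cd163, -3.79 ± 0.45 for F13a1, -2.77 ± 0.64 for Lyve1 and -2.09 ± 0.19 for Dab2. It was -5.17 ± 0.72 for Pf4, -3.45 ± 0.73 for Cbr2, -2.75 ± 0.82 for Ms4a7 and -0.10 ± 0.11 for Stab1. A call needed an adjusted p under 0.1 and a log2 fold change past 0.6 in either direction. By that rule 7 of the 9 were called lower in J-A, beside 0.459% of all genes tested. Nothing is read from this count, since the same contrast chose the genes. The number of the 9 called ran from 5 to 8 when single libraries were left out (5 without sham library 3, 4 or 5).

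For the 8 genes that did not overlap over all 10 libraries, separation inside each condition follows from that and is no further support. In sham mice 9 of the 9 genes had both J-A libraries below the 3 M libraries (12.8% of all genes did), with ratios of means of 15.7 for Mrc1, 33.3 for Cd163, 25.5 for F13a1, 11.2 for Lyve1, 5.44 for Dab2 and 36.2 for Cbr2. For Ms4a7, at 0 counts in both sham J-A libraries, the M mean was at least 12.8-fold higher than a floor of 3 counts per library. In FPI mice 8 of the 9 did so (13.7% of all genes), with smaller ratios of 3.87 for Mrc1, 12.3 for Cd163, 8.37 for F13a1, 4.05 for Lyve1, 3.33 for Dab2, 17.5 for Pf4, 5.38 for Cbr2 and 2.46 for Ms4a7. Stab1 differed by 1.06 times in sham and by 1.08 times in FPI.

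Because Stab1 took 60.01 to 82.5% of the summed CPM of the 9 genes in M libraries and 90.6 to 95.7% in J-A libraries, the sum is given with and without it. The 9 genes summed to 1264 ± 196 CPM (SD, n = 6) in the M series and to 867 ± 29.1 CPM (n = 4) in the J-A series. Without Stab1, an alternative added after its level was seen, the 8 genes summed to 387 ± 162 CPM, with a range of 191 to 580 CPM, in the M series. In the J-A series they summed to 49.9 ± 19.5 CPM, with a range of 38.5 to 79.1 CPM. The ratio was 1.46 with Stab1 and 7.76 without it.

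Levels between genes were compared per kilobase of exon. In sham M libraries the order was Stab1 (88.2 ± 3.33 CPM per kb, SD, n = 3), Mrc1 (38.2 ± 9.06), Pf4 (25.5 ± 11.9), Dab2 (12.9 ± 2.81), F13a1 (11.1 ± 3.32), Cd163 (9.31 ± 2.22), Cbr2 (6.10 ± 2.72), Lyve1 (4.65 ± 1.27) and Ms4a7 (1.32 ± 0.36). The same order held inside each of the 3 libraries, except for Cbr2 and Lyve1, whose order changed between libraries. Between libraries the ranges of Mrc1 and Pf4 overlapped, as did those of Dab2, F13a1 and Cd163, and those of Cd163 and Cbr2. Stab1 stood above the rest and Ms4a7 below in every one of them. The order was not tested. In sham J-A libraries Stab1 was at 82.8 ± 1.69 CPM per kb (n = 2), Mrc1 at 2.43 ± 0.89 and Dab2 at 2.37 ± 0.43, and the other 6 were at 0.44 CPM per kb or less.

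The proportions between the genes were also measured, as counts relative to the counts of Mrc1 in the same library. In sham M libraries Cd163 came to 20.6 to 21.3% of Mrc1 and F13a1 to 28.1 to 33.2%, which is a narrow range over 3 animals. In FPI M libraries F13a1 came to 24.7 to 27.9%, while Cd163 spread from 8.16 to 22.7%. In J-A libraries, where counts were few, Cd163 came to 1.72 to 23.7% and F13a1 to 2.44 to 22.03%. Dab2 came to 33.9 to 42.2% of Mrc1 in sham M libraries and to 78.2 to 171% in sham J-A libraries, so Dab2 was the one of these 3 genes whose level relative to Mrc1 was higher in the sham J-A libraries. Pf4 came to 5.31 to 10.2% in sham M and to 0 to 3.39% in sham J-A.

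As a description over the 10 microglia libraries, which fall into the 2 series, log2 CPM of Mrc1 went with that of F13a1 at a Pearson r of 0.96, of Cd163 at 0.91 and of Stab1 at 0.39. After each gene was centred on the mean of its series and condition, Mrc1 and F13a1 kept an r of 0.88, while Mrc1 with Cd163 had -0.15 and Mrc1 with Pf4 had -0.04. The points share library depth and the series, and no p is given.

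Other genes that mark border macrophages were examined from a list of 33 symbols, also written with earlier results known, of which 32 were found and 28 tested. In the series fit 3 were called lower in J-A and 0 higher, beside 0.459% of all genes called lower. DESeq2 called 9 lower and 0 higher, beside 128 of all 13062 genes in either direction. The median log2 fold change in edgeR was -0.94, beside 0.01 over all genes tested. It was negative for 24 genes (13 at an unadjusted p below 0.05 in edgeR) and positive for 4 (1 at that p). Summed over the 32 genes found, the level overlapped, at 1215.1 to 1685.8 CPM in M and 1229.5 to 1697.5 CPM in J-A. Maf (48684 counts over the 10 libraries), Nrp1 (23138) and Hpgd (20035) held the most counts. The genes named next were those of smallest p. Clec10a, a galactose-type lectin, stood at 0.438 ± 0.415 CPM in J-A (n = 4) and 6.67 ± 3.36 CPM in M (n = 6), with an adjusted p of 0.0132 in edgeR. Cd36, a scavenger and fatty acid receptor, stood at 0.954 ± 0.747 CPM against 9.32 ± 4.97 CPM (edgeR, adjusted p = 0.00553). Colec12, a collectin with scavenger function, stood at 2.00 ± 0.815 CPM against 8.78 ± 2.93 CPM (edgeR, adjusted p = 0.0385).

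The next 3 of this list by p were not called by edgeR and were called lower in J-A by DESeq2. The chemokine Ccl8 stood at 0.0559 CPM in J-A and at 2.44 CPM in M (edgeR, adjusted p = 0.137). The ficolin Fcna was at 0 counts in J-A and at 2.37 ± 2.42 CPM in M (edgeR, adjusted p = 0.121), and the phospholipase Pla2g2d at 0 counts in J-A and at 2.54 ± 2.54 CPM in M (edgeR, adjusted p = 0.157). Fcna and Pla2g2d overlapped between the series at these low counts.

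Lists of other cell types that a CD11b+ gate could hold were measured in the same libraries. The MHC class II genes H2-Aa, H2-Ab1 and H2-Eb1, which stand in the dendritic cell list and which border macrophages also express, were called lower in J-A. H2-Aa stood at 3.47 ± 1.12 CPM in J-A against 25.5 ± 14.2 CPM in M (log2 fold change -2.85 ± 0.39 SE, edgeR adjusted p = 0.000296), H2-Ab1 at 10.1 ± 4.71 against 42.2 ± 15.6 CPM (-2.07 ± 0.30, adjusted p = 0.000678) and H2-Eb1 at 2.54 ± 1.80 against 26.2 ± 11.3 CPM (-3.31 ± 0.48, adjusted p = 0.000678). That list as a whole summed to 71.5 to 163 CPM in M and to 12.8 to 30.8 CPM in J-A, with 3 of its 4 tested genes called, beside 0.459% of all genes called lower. Those 3 are the MHC class II genes, which hold most of the sum. Zbtb46 was not called, and Flt3, Xcr1, Clec9a and Ccr7 had 33, 14, 8 and 8 counts over the 10 microglia libraries together. The neutrophil list (0 of 4 tested genes called by edgeR, 3 called lower in J-A by DESeq2) summed to 5.38 to 34.0 CPM in M and to 0.313 to 4.47 CPM in J-A, with Ngp at 5.08 ± 5.62 CPM in M against 0.202 ± 0.275 CPM in J-A (edgeR, adjusted p = 0.122), S100a9 at 4.06 ± 3.401 against 0.443 ± 0.139 CPM (adjusted p = 0.240) and Ltf at 4.11 ± 2.72 against 0.872 ± 1.38 CPM (adjusted p = 0.501). Their part in the difference of the 9 genes was not tested.

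The monocyte list (0 of 6 called) summed to 23.4 to 217 CPM in M and to 29.0 to 75.7 CPM in J-A, with Ly6c2 at 0 in all 10 microglia libraries and Ccr2 at 5.47 ± 2.36 against 2.74 ± 2.21 CPM. The lymphocyte list (0 of 2 called) ran from 5.71 to 14.2 CPM in M and from 4.05 to 10.3 CPM in J-A, with Cd3e, Cd8a, Trac, Cd79a, Ms4a1 and Nkg7 at 0 throughout. Cd4 stood at 3.88 ± 2.67 CPM in M against 0.331 ± 0.562 CPM in J-A (edgeR, adjusted p = 0.184) and was called by DESeq2. The mast cell list reached 1.37 CPM in M and 0 in J-A, and none of its genes passed the filter. Of the platelet list, which bears on Pf4, Ppbp and Gp6 were at 0 in all 10 libraries, and the list ran from 2.55 to 11.6 CPM in M and from 7.02 to 11.96 CPM in J-A (0 of 2 called). Of the lymphatic endothelium list, which bears on Lyve1, Ccl21a was at 0, and the list ran from 30.2 to 52.5 CPM in M and from 25.0 to 36.3 CPM in J-A (0 of 1 called).

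The blood endothelium list ran from 50.4 to 76.1 CPM in M and from 56.4 to 72.6 CPM in J-A, and 0 of its 6 genes were called. Fibroblast and mural cell genes ran from 31.0 to 84.2 CPM in M and from 28.3 to 41.6 CPM in J-A (0 of 6 called). Astrocyte genes ran from 241 to 562 CPM and from 231 to 327 CPM (0 of 6 called). At an unadjusted p below 0.05 in edgeR there were 3 neutrophil genes, 2 astrocyte genes and 1 gene each of the monocyte, lymphocyte and fibroblast lists, and 0 of the platelet, lymphatic and blood endothelium lists. Of all 13062 genes tested, 481 were lower and 360 higher in J-A at that p. DESeq2 called 0 of the monocyte, platelet, endothelium, fibroblast and astrocyte genes. Of the 12 microglia identity genes 0 were called by edgeR or by DESeq2 (4 at an unadjusted p below 0.05), and the 3 of smallest p, Olfml3, Gpr34 and Slc2a5, were 0.40 ± 0.13, 0.45 ± 0.17 and 0.35 ± 0.15 (log2, SE) higher in J-A. By ratio of means, 8 of the 9 border macrophage genes differed by 4.41 to 35.7 times in the same libraries.

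The immediate-early genes, which are known to rise in microglia during dissociation of fresh tissue, differed in the same direction. Of 9 genes, 8 were called lower in J-A by edgeR, beside 0.459% of all genes tested, and Junb was not. Fos stood at 123 ± 22.9 CPM in J-A and at 374 ± 30.1 CPM in M (log2 fold change -1.60 ± 0.13 SE, adjusted p = 1.42e-06), Dusp1 at 94.1 ± 15.9 against 259 ± 31.5 CPM (-1.46 ± 0.14, adjusted p = 3.67e-06) and Atf3 at 77.2 ± 12.8 against 216 ± 69.1 CPM (-1.46 ± 0.15, adjusted p = 9.6e-06). The list summed to 3425 to 4198 CPM in M libraries and to 1364 to 2257 CPM in J-A libraries. Its part in the difference of the 9 genes was not tested.

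**Figure D2:**
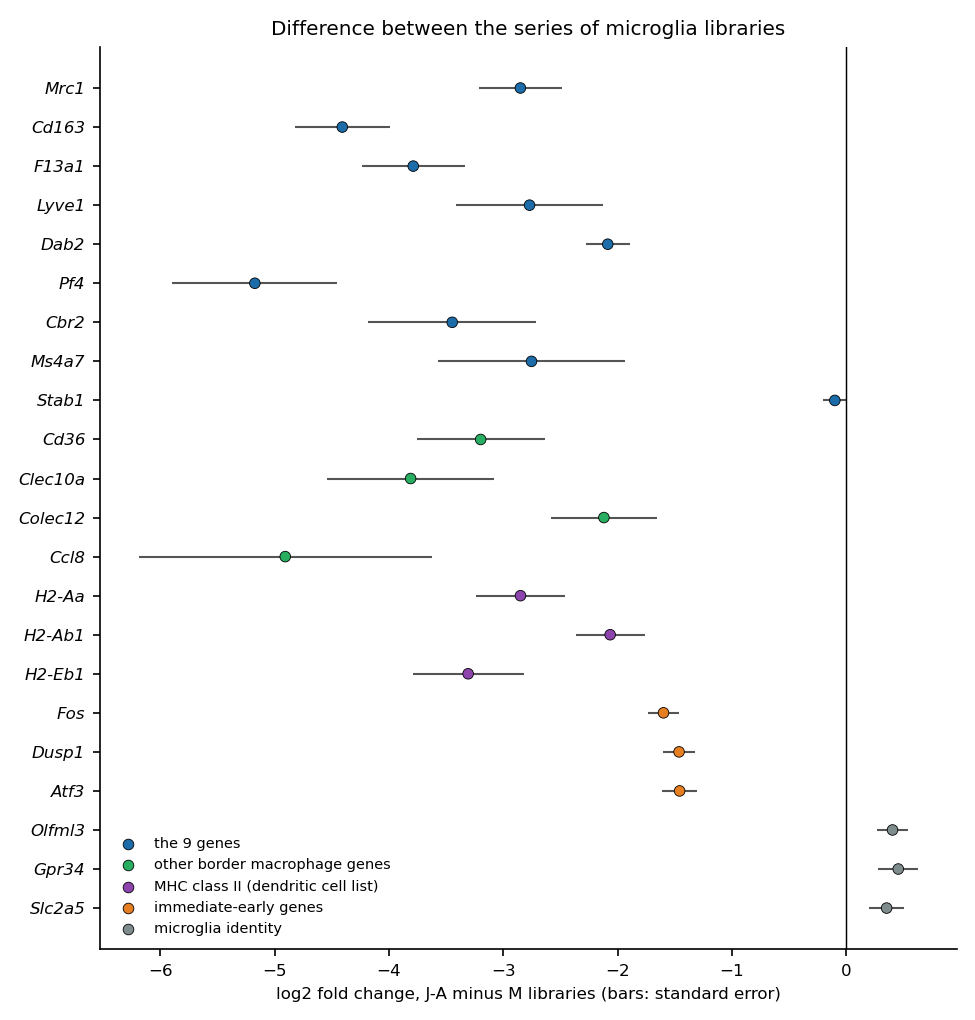
Log2 fold change of J-A minus M microglia libraries (x axis) with its standard error (bars), for the 9 genes and for named genes of 4 other lists, genes at 0 counts in 1 series left out. The points of 8 of the 9 genes lie between -2.09 and -5.17, Stab1 lies at -0.10, and the 3 microglia identity genes lie above 0.

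**Figure D3:**
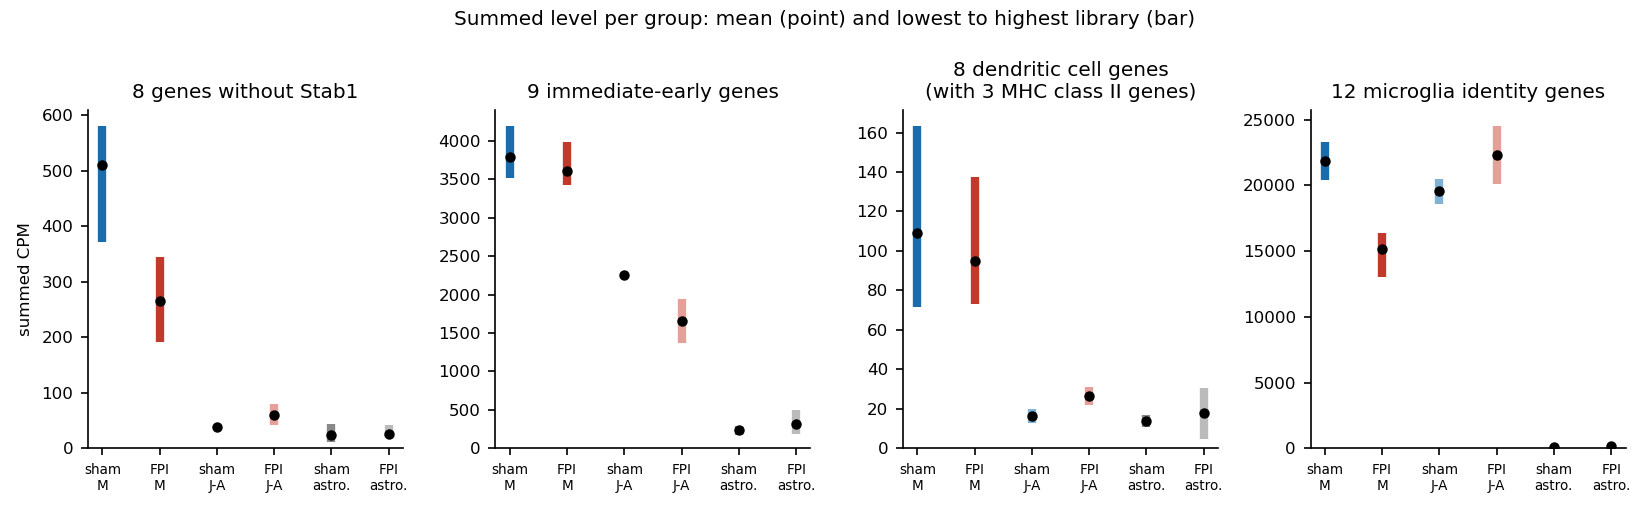
Summed CPM of 4 lists per group, with the group mean (points) and the range from the lowest to the highest library (bars), on linear axes that start at 0. The 8 genes without Stab1 range from 191 to 580 CPM in M libraries and from 38.5 to 79.1 CPM in J-A libraries, whereas the ranges of the microglia identity genes overlap.

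The second comparison was of FPI with sham in microglia. Over all 10 libraries 8 of the 9 genes had a lower mean in FPI, and for each of the 9 the FPI and sham libraries overlapped, where 1.11% of all genes had every FPI library below every sham library and 2.11% above. The log2 fold change of FPI minus sham was -0.73 ± 0.63 (SE) for Mrc1, -1.35 ± 0.80 for Cd163, -1.06 ± 0.76 for F13a1, -1.90 ± 0.75 for Lyve1 and -0.68 ± 0.45 for Dab2. It was -0.70 ± 0.93 for Pf4, -0.57 ± 0.83 for Cbr2, 0.43 ± 0.82 for Ms4a7 and -0.11 ± 0.11 for Stab1. None of the 9 was called by edgeR or by DESeq2, beside 2.35% of all 12143 genes called by edgeR in either direction (0.214% lower). At an unadjusted p below 0.05 there was 1 of the 9, lower in FPI, beside 907 of all genes higher and 470 lower, and nothing is read from these counts. These values come from a fit without a term for the series. With that term the log2 fold change was -0.20 for Mrc1, -1.04 for Cd163, -0.69 for F13a1, -1.57 for Lyve1 and -0.52 for Dab2. It was then -0.36 for Pf4, -0.06 for Cbr2, 1.26 for Ms4a7 and -0.11 for Stab1, and 0 of the 9 were called.

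Within the M series 8 of the 9 genes had a lower mean after FPI. Cd163, F13a1, Lyve1 and Dab2 had the 3 FPI libraries below the 3 sham libraries, beside 8.82% of all 13851 genes tested. The ratio of sham to FPI means was 4.14 for Lyve1, 2.64 for Cd163, 2.20 for F13a1, 1.87 for Mrc1, 1.71 for Dab2, 1.68 for Pf4, 1.64 for Cbr2, 1.07 for Stab1 and 0.935 for Ms4a7. The 8 genes without Stab1 summed to 510 ± 120 CPM in sham and to 264 ± 77.2 CPM in FPI (SD, n = 3), and every FPI library (191 to 345 CPM) lay below every sham library (371 to 580 CPM).

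In the fit with 4 group means, Mrc1 had -0.91 ± 0.27 (log2 fold change, SE), Cd163 -1.40 ± 0.34, F13a1 -1.14 ± 0.38, Lyve1 -2.05 ± 0.66 and Dab2 -0.78 ± 0.20. Of the 9, 3 were called lower by edgeR, beside 0.765% of all genes, and again nothing is read from the count. DESeq2 also called 3, not all of them the same genes, and the count was 2 with RLE factors, 5 with each series fitted alone and 5 with no filter beyond 1 count. It was 0 without sham library 1 or sham library 3, and 5 without FPI library 4 or 5.

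Other lists moved in the same 6 libraries. The 12 microglia identity genes summed to 20431 to 23317 CPM in sham M and to 13007 to 16373 CPM in FPI M. Of the 12, 6 were called lower and 0 higher (edgeR), beside 0.765% of all genes called lower. The monocyte list summed to 23.4 to 52.7 CPM in sham M and to 69.8 to 217 CPM in FPI M. Of its 7 tested genes 2 were called higher, beside 299 of all 13851 genes. The astrocyte list summed to 241 to 327 CPM in sham M and to 331 to 562 CPM in FPI M. Their part in the lower levels of the 9 genes was not tested.

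Within the J-A series 6 of the 9 had a positive log2 fold change and 3 a negative one, from 2 libraries a group. Mrc1 stood at 15.5 ± 5.64 CPM in sham and at 33.6 ± 20.4 CPM in FPI (SD, n = 2), and its log2 fold change was 1.09 ± 0.38 (SE). Cd163 was 0.26 ± 0.64, F13a1 0.48 ± 0.63, Lyve1 -0.47 ± 0.96, Dab2 -0.06 ± 0.26, Pf4 1.90 ± 1.38, Cbr2 1.72 ± 1.13 and Stab1 -0.13 ± 0.16. Several of these values rest on single libraries. When each library was left out in turn, F13a1 ran from -2.64 to 1.35 (the lowest without FPI library 5), Pf4 from -3.48 (without FPI library 4) to 5.41 (without sham library 5), and Cd163 from -0.78 (without sham library 4) to 2.19 (without sham library 5). Lyve1 ran from -6.30 (without FPI library 5) to 0.49 (without FPI library 4), Dab2 from -0.24 to 0.12, Cbr2 from 0.03 (without FPI library 4) to 5.92 (without sham library 4) and Mrc1 from 0.28 (without FPI library 5) to 1.60.

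Only 2 of the 9 had FPI and sham J-A libraries that did not overlap. Ms4a7 had 0 and 0 counts in sham and 11 and 25 counts in FPI, at least 5.55-fold higher than a floor of 3 counts per library, and Stab1 had FPI below sham by 1.09 times. Of all genes 20.3% had both FPI libraries above both sham libraries and 21.4% had them below. Of the 9, 1 was called higher by edgeR, beside 0.513% of all genes, and nothing is read from this count, since the genes were chosen with this contrast in view. The count was 0 without sham library 4, sham library 5 or FPI library 5, and 0 in DESeq2.

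**Figure D4:**
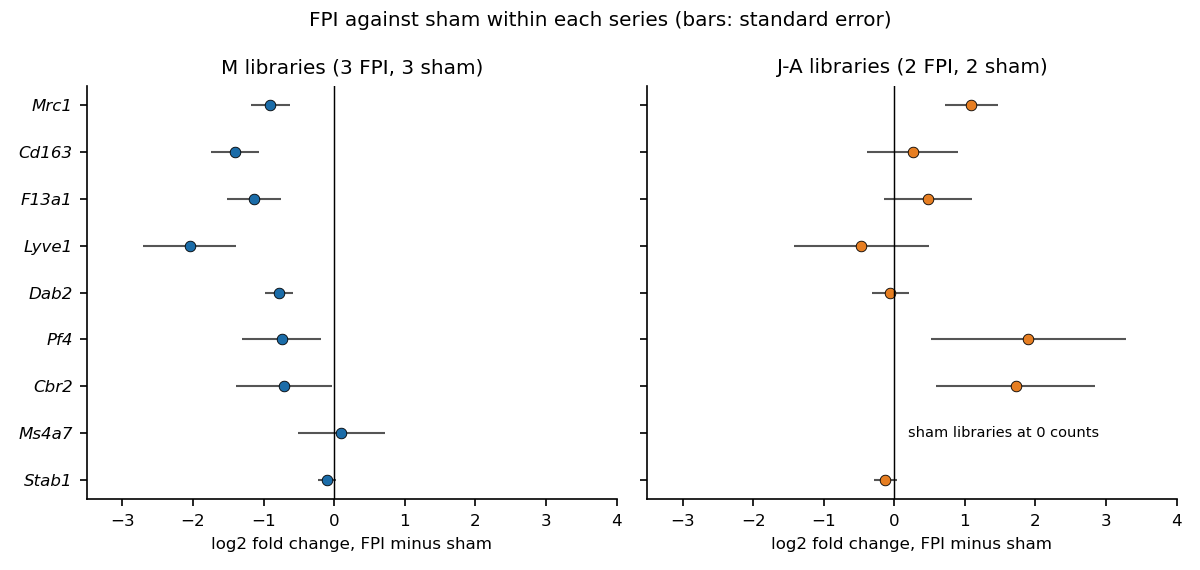
Log2 fold change of FPI minus sham within the M libraries (left, 3 FPI and 3 sham) and within the J-A libraries (right, 2 FPI and 2 sham), with standard errors as bars. In the M libraries 8 of the 9 points lie below 0, and in the J-A libraries Mrc1 lies at 1.09; Ms4a7 has no point in J-A because both sham libraries are at 0 counts.

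The difference of the FPI effects, J-A minus M, was 2.00 ± 0.47 (log2, SE) for Mrc1, 1.66 ± 0.73 for Cd163, 1.62 ± 0.73 for F13a1, 1.58 ± 1.17 for Lyve1, 0.72 ± 0.33 for Dab2, 2.65 ± 1.49 for Pf4 and 2.43 ± 1.32 for Cbr2. It was -0.02 ± 0.20 for Stab1. None of the 9 was called for this difference by edgeR or DESeq2, beside 0.0144% of all genes called by edgeR, and 3 of the 9 were called with no filter beyond 1 count. At an unadjusted p below 0.05 there were 5 of the 9, beside 1397 of all 13851 genes, and nothing is read from these counts. Each pair of effects in the 2 series used its own libraries.

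Of the other border macrophage genes, 3 were called in FPI against sham over all 10 libraries, and those 3 were higher (2.13% of all genes were called higher). Cd5l, a scavenger receptor cysteine-rich protein of macrophages, stood at 11.6 ± 6.84 CPM in FPI and at 0.392 ± 0.409 CPM in sham (n = 5 each; edgeR, adjusted p = 0.00054). Siglec1, the sialic acid receptor CD169, which also responds to type I interferon, stood at 50.5 ± 24.1 against 15.2 ± 11.997 CPM (edgeR, adjusted p = 0.0299). Folr2, folate receptor beta, stood at 8.73 ± 4.23 against 2.84 ± 1.43 CPM (edgeR, adjusted p = 0.0918).

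These 3 genes, named because they were called, rose after FPI, while 8 of the 9 had a negative log2 fold change over all 10 libraries. The changes of these 3 were positive in both series, and in the J-A series 6 of the 9 genes were positive too. The log2 fold change of Siglec1 was 1.35 ± 0.37 in M and 2.91 ± 0.50 in J-A, that of Cd5l was 4.99 ± 0.89 and 4.45 ± 1.09, and that of Folr2 was 1.36 ± 0.56 and 2.22 ± 0.74. Over the 23 genes of the list that were tested, 3 were called higher and 0 lower. The fold change was positive for 8 and negative for 15, with a median of -0.13, beside -0.01 over all genes. The 3 were not called between the series: Siglec1 had -0.99 ± 0.36 (J-A minus M), Folr2 -0.69 ± 0.47 and Cd5l 0.22 ± 0.66. In the other lists, Fn1 (89.6 ± 63.1 against 24.9 ± 9.76 CPM) and Cd44 (12.6 ± 8.13 against 2.41 ± 1.10 CPM) of the monocyte list rose (edgeR, adjusted p = 0.00959 for each). P2ry13 (441 ± 123 against 695 ± 120 CPM, adjusted p = 0.0493) and Slc2a5 (200 ± 62.97 against 310 ± 34.2 CPM, adjusted p = 0.0651) of the microglia list fell.

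Astrocytes served as the reference. CPM use TMM factors set within each cell type, so levels set side by side here are not on a common scale. Pf4 was at 0 counts in all 10 astrocyte libraries, where 3 counts would be 0.252 to 0.482 CPM. Lyve1 had 3 counts in 1 library, Cbr2 12 counts in 1 library and Ms4a7 2 and 7 counts in 2 libraries. Mrc1 had 2 to 42 counts per astrocyte library (0.168 to 4.88 CPM), Cd163 0 to 19 counts (at most 2.00 CPM) and F13a1 0 to 7 counts (at most 0.881 CPM). For each of these 7 genes the highest astrocyte library lay below the lowest M library. Against the J-A libraries this held for Mrc1, which was at 11.5 CPM or more in each of them, whereas the other 6 genes had J-A libraries within the astrocyte range.

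Stab1 stood at 1.35 to 17.8 CPM in astrocytes against 737 to 939 CPM in microglia of either series. Dab2 was the exception among the 9, at 10.2 to 40.1 CPM in astrocytes, a range that holds the J-A microglia libraries (15.2 to 19.6 CPM) and lies below the M libraries (48.0 to 116 CPM). In a fit of all 20 libraries, which took them as independent although 3 animals gave 1 library of each cell type and FPI astrocyte libraries 2 and 5 share an animal number, all 9 genes were called higher in microglia, beside 27.1% of all genes. Nothing is read from this count, since the genes were chosen by this contrast and some passed the filter through microglia alone, and it was 9 of 9 without FPI astrocyte library 5 too. The log2 fold change ran from 1.17 ± 0.37 (SE) for Dab2 to 9.20 ± 1.60 for Pf4, a fit against 0 counts that is no bound.

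The 3 animals with both cell types allow a comparison inside an animal. Mrc1 had 1594 counts in microglia and 8 in astrocytes of the FPI animal, 2493 and 6 in the first sham animal and 2410 and 35 in the second. Dab2 had 478 and 325 counts, 1052 and 102, and 1013 and 175. All 3 microglia libraries are of the M series, and no animal of the J-A series gave an astrocyte library here.

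FPI against sham was tested in astrocytes, where the filter on low counts kept 3 of the 9 genes. The log2 fold change was 0.17 ± 0.80 (SE) for Mrc1, -0.03 ± 0.37 for Dab2 and 0.93 ± 0.64 for Stab1, and the adjusted p was 0.999 for each in edgeR. None of the 3 was called by edgeR, beside 0.00728% of all genes, or by DESeq2, and none had an unadjusted p below 0.05. This fit took FPI libraries 2 and 5, which share an animal number, as independent, and without library 5 it called 0 of the 3 and 0 of all genes. F13a1, which did not pass the filter, had 3 to 7 counts in the 5 FPI astrocyte libraries and 1, 0, 0, 0 and 0 in the 5 sham libraries. Beside this, 0.488% of all genes tested had every FPI astrocyte library above every sham library.

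The genes whose pattern over the 10 microglia libraries was most like the summed level of the 9 genes were named by Pearson correlation of log2 CPM. With Stab1 in the sum they were Supt6, Tab2, Cmah, Ep300, Clec10a, Swap70, Usp14, Cd36 and Dapp1, with r from 0.92 to 0.96. Without Stab1 they were Wwp1, Clec10a, Itsn1, Ncoa3, Ifi203, Cd36, H2-Aa, Supt6, Colec12 and Gm26802, with r from 0.92 to 0.98. Clec10a, Cd36 and Supt6 stood in both. After centring on series and condition the 5 highest were Cxx1c, Pla2g2d, Wbscr27, Slc10a3 and Ptprn (r from 0.96 to 0.97), and without Stab1 Atp6ap1, Tnfaip8l2, 4931440P22Rik, Sdc3 and Niacr1 (r from 0.96 to 0.98). These are the highest correlations over all genes tested, from 10 points that share depth and series.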

How the data were processed

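Total RNA of sorted microglia and astrocytes was sequenced after library preparation with the SMARTer Stranded Total RNA Pico v2 kit. The authors aligned reads to mm10 (GRCm38.p6) with HISAT2 2.1.0, and the submitters' processing notes name featureCounts. The deposited values are whole-number counts of reads per gene, not normalized, and the 20 per-sample files equalled the combined table. The authors' own tests rest on salmon estimates, not analysed here. Whether counting used strand is not given in the sources used here.

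Groups were taken from titles, and the series from the library names. Identifiers were matched to GENCODE M21 (37607 of 39017, with 99.8% of counts). The symbol Dab2 has 2 identifiers; ENSMUSG00000022150, the one in M21, was used, and the other has 0 counts. Counts were fitted with edgeR 4.0.16 in R 4.3.3 (filterByExpr, TMM, quasi-likelihood test, Benjamini-Hochberg adjustment over all genes tested). The standard errors printed with edgeR fold changes were back-calculated from the fold change and the F statistic of that test. For the 9 genes they are a description too, and where a group is at 0 counts they are no measure of error. The series fit had terms for condition and series, FPI against sham no covariate (the study's design), FPI within series 4 group means, and cell types 4 group means over all 20 libraries. A call needed an adjusted p under 0.1 and a log2 fold change past 0.6 in either direction, as in the study. All 9 genes passed the filter in the microglia fits, some through the M libraries alone, where they are high. CPM are on the TMM scale within each cell type, correlations use log2(CPM + 0.5), and a group at 0 was given a floor of 3 counts per library, which covers counting error only. The series fit and the fit of FPI against sham in microglia were checked on simulated data, and the other fits were not. Python 3.11.15, numpy 2.4.6, pandas 2.3.3 and matplotlib 3.10.9 made tables and figures.

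The 9 genes and all other lists were chosen with earlier results of these data known. Named beside the 9 are up to 6 genes of smallest p in the series fit from the other border macrophage genes, up to 3 from each other list, those called in FPI against sham, and the genes of most like pattern, of which 1 is not reported here. Immediate-early genes other than these and Csf1 were named after their values were seen. Alternatives were DESeq2 1.42.0, RLE factors, no filter beyond 1 count, other terms, each series alone, a block for the replicate number, library totals without factors, and leaving out each library. The sum without Stab1 and the difference of FPI effects between series were alternatives chosen after seeing the data. Labels do not say that replicates came from separate litters or days, and p-values measure the spread between these libraries. The name of the fifth FPI astrocyte library ends in M and repeats the animal number of the second; its title was followed. By the names the FPI astrocyte group thus holds 4 animals, while the fits took its 5 libraries as independent.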

Additional observations from a re-analysis of the deposited data

Results flagged for a closer look

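Single libraries were flagged against the others of their group by Dixon's test in 15 cases, a test that flags about 1 in 20 groups by chance. The number of groups tested is not given here, so the 15 are not set against that rate. Of the 9 genes this was so in astrocytes only. F13a1 was at 0.13 CPM (1 count) in sham library 1 and at 0 in the others, Lyve1 at 0.482 CPM (3 counts) and Ms4a7 at 1.12 CPM (7 counts) in FPI library 5, and Cbr2 at 1.4 CPM (12 counts) in FPI library 4. For F13a1, Lyve1 and Cbr2 all other libraries of the group were at 0, where any count is flagged. Dab2 was at 39.6 CPM in FPI library 3, with the others at 14.0 to 19.5 CPM.

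Of the other lists, FPI microglia library 1 stood high in Cd36 (12.8 CPM, others 0.469 to 3.73), Pla2g2d (5.95 CPM, others at most 0.588) and Prox1 (46.9 CPM, others 31.2 to 34.0). FPI microglia library 3 stood high in Ngp (7.53 CPM, others at most 0.373). Sham microglia library 3 stood high in S100a9 (5.25 CPM, others at most 1.68), Col1a1 (30.3 CPM, others at most 9.70) and Col1a2 (27.9 CPM, others at most 8.36). Sham microglia library 2 stood high in Itgal (6.65 CPM) and library 1 in Pdgfrb (13.8 CPM), and library 5 stood low in Gja1 (6.22 CPM, others 12.4 to 14.7).

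The effect of FPI on Gfap in microglia libraries differed between the series, with a log2 difference of -3.93 (J-A minus M). Gfap and Csf1 were the 2 genes of 13851 called for this difference by edgeR, and 1397 had an unadjusted p below 0.05. The count was 129 in DESeq2, which also called 8 of the 12 microglia identity genes, and 152 with no filter beyond 1 count.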

How the results depend on the processing

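Calls rest on 2 to 6 libraries a group, and genes of few counts in J-A libraries (Pf4, Cbr2, Ms4a7, Lyve1) have wide errors. The series difference called 74 genes, and 128 in DESeq2, 135 with no filter beyond 1 count, 44 with no term for condition and 49 to 76 without single libraries, the lowest without FPI library 4. FPI against sham in microglia called 285 genes and 177 to 423 without single libraries, the lowest without sham library 2 or FPI library 2. Within M it called 405 genes (225 to 529, the lowest without sham library 1, with 237 without sham library 3), and within J-A 72 genes (7 without FPI library 5, 21 without sham library 5, 24 without sham library 4, 162 without FPI library 3 and 353 without FPI library 4), 199 in DESeq2 and 264 with no such filter. In astrocytes it called 1 gene, 23 in DESeq2, 9 with no such filter and 0 to 3 without single libraries (0 without any of sham libraries 1 to 4 or FPI libraries 2, 4 and 5). Microglia against astrocytes called 9683 genes, and 9900 without FPI astrocyte library 5. Of the other border macrophage genes 3 were called between the series, 9 in DESeq2, 8 with every gene kept and 2 to 4 without single libraries, and 3 in FPI against sham (1 to 4, with 1 without sham library 2 or FPI library 1). Of the 9 genes 7 were called lower in J-A, 8 in DESeq2 or with no filter and 6 with no term for condition, and in FPI against sham 0 were called, and 2 with no filter. The summed level of the 9 genes was -0.54 on the log2 scale (J-A over M), -0.67 with library totals without factors and -2.96 without Stab1, and -0.60 to -0.49 without single libraries. For FPI over sham it was -0.26, -0.81 without Stab1 and -0.36 to -0.18 without single libraries. The causes were not tested.

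Replicate numbers are shared between groups, and in microglia 0 of 5 same-numbered pairs had an r over 0.1 (-0.08 to 0.08). In astrocytes 4 of 5 had (0.27 to 0.49), with 1 at -0.01, and not every library correlated best with its own number. Not every pair passed and the labels name no shared animal or day for a number, so the libraries were taken as unpaired, which is not settled for astrocytes. With a replicate block FPI against sham called 268 genes in microglia (285 without it) and 17 in astrocytes (1 without it), with 0 of the 9 genes in either.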
